A study of Mus musculus with 2 samples.

Results

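The microRNAs (miRNAs) of the miR-200 family, with miR-203 and miR-205, are known as the miRNAs of epithelial cells, and their levels were measured here in the adrenal glands of newborn mice. The genes are Mir429, Mir200b and Mir200a in a cluster on chromosome 4, Mir200c and Mir141 in a cluster on chromosome 6, Mir203 on chromosome 12 and Mir205 on chromosome 1. They were found by matching the Ensembl identifiers of the deposited tables to GENCODE symbols, and all 7 had a row among the 1973 miRNA gene rows. Small RNA below 30 nucleotides was sequenced from B6NCrl mice of age 0 days after birth, in 1 library per pup. Each library was made from the pair of glands of 1 pup, and the pups were littermates, with no treatment, no genetic change and no sex recorded in the labels. The 2 libraries, called pup 2 and pup 1 after the labels, form 1 group. Both carry the same donor identifier although their descriptions name separate pups, and they were treated as 2 pups. The spread between them would be technical only if that identifier, against the descriptions, means 1 animal.

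miRNAs are cut from hairpin transcripts and repress messenger RNAs that pair with bases 2 to 8 of the mature strand, the seed. The miR-200 family keeps cells epithelial by repressing the transcription factors ZEB1 and ZEB2, which in turn repress the miR-200 genes, and the family is low in mesenchymal cells. miR-203 promotes the differentiation of stratified epithelium such as skin, and miR-205 is abundant in basal epithelial cells. The adrenal is not a typical epithelial organ: its steroid-producing cortex derives from mesoderm and its medulla of chromaffin cells from neural crest.

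The mature strands are shown because they define the seed groups and show how few bases set the family members apart. These are the arms usually taken as the main products, from RefSeq on GRCm38.p6, and capitals mark the seed. All 7 genes were matched there.
miR-429-3p: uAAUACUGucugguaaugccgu
miR-200b-3p: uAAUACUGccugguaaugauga
miR-200c-3p: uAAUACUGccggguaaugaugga
miR-200a-3p: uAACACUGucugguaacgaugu
miR-141-3p: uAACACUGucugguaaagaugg
miR-203-3p: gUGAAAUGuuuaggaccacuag
miR-205-5p: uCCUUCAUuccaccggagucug
The family has 2 seeds. miR-429, miR-200b and miR-200c share AAUACUG, and miR-200a and miR-141 share AACACUG, so each cluster makes both. The seed groups differ at 1 base of the seed, the substitution U4C from miR-200b to miR-200a counted from the 5′ end. No other mature miRNA in the RefSeq table has any of these 4 seeds. Outside the seed, miR-200b and miR-200c differ at 2 of 22 bases, U11G and A22G, and miR-200a and miR-141 at 2 of 22 bases, C17A and U22G. Each of these mature strands occurs in 1 hairpin of the table, so reads of full length can be placed uniquely. Reads that end before base 22 would rest on a single difference within these pairs. Counts are per gene and do not separate the arms of a hairpin.

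On mm10, by the GENCODE M21 annotation, the chromosome 4 genes lie on the minus strand in the order Mir200b, Mir200a, Mir429, within 1846 bases, inside introns of the tubulin tyrosine ligase-like gene Ttll10 and within the noncoding transcript Gm13648. Mir200b (ENSMUSG00000065549.2, chr4:156055681-156055750) and Mir200a (ENSMUSG00000065400.1, chr4:156054896-156054985) are in introns of Gm13648, and Mir429 (ENSMUSG00000065427.1, chr4:156053905-156053987) is in an exon of it. On chromosome 6, Mir200c (ENSMUSG00000065462.2, chr6:124718322-124718390) and Mir141 (ENSMUSG00000065474.1, chr6:124717914-124717985) are 336 bases apart on the minus strand in an intron of the noncoding transcript Gm15884. Mir203 (ENSMUSG00000065574.1, chr12:112130880-112130955) is on the plus strand with no annotated host. Mir205 (ENSMUSG00000065533.1, chr1:193507463-193507530) is in an exon of the noncoding RNA 4631405K08Rik, which RefSeq names Mir205hg, on the minus strand.

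The start of Gm13648 lies 4052 bases before the Mir200b hairpin, and its promoter window is printed because Mir200b and Mir429 were the members that differed most between the pups. ZEB1 binds E-box motifs, and E-boxes of this kind are known in the miR-200 promoters. The window runs from 250 bases before to 50 after the start of Gm13648, at chr4:156059753-156060052 on the minus strand (RefSeq, GRCm38.p6), with E-boxes in capitals.
Gm13648 promoter: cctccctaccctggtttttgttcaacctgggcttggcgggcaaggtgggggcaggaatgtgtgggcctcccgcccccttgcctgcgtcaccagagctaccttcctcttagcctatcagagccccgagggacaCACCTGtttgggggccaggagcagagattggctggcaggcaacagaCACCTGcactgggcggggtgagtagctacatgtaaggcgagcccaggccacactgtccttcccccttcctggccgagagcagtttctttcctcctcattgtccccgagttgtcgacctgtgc
The motif searched was CACCTG on either strand, which reads CAGGTG on the other. It was found 2 times in this window, starting 118 and 72 bases before the start, and 1 time in the window of Mir205hg, 193 bases before. The window of Gm15884, the host on chromosome 6, was not searched. At least 1 match occurs in 20.2% and at least 2 in 2.88% of the 32851 promoter windows of the table. These matches describe the sequence only.

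Levels are given as CPM, the count of a gene over the same-strand miRNA gene counts of its library, times 1000000. These totals were 3327743 in pup 2 and 1131762 in pup 1, so 1 read is worth 0.301 CPM in pup 2 and 0.884 CPM in pup 1. Intervals are exact 95% intervals that cover counting error only. Reads amplified without molecular identifiers are not independent molecules. The tables hold miRNA genes only, so protein markers of adrenal cortex and medulla could not be set beside them. In whole glands, fewer cells of a type and less of an RNA per cell cannot be told apart.

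The 7 genes together were a minor component of adrenal miRNA, with 0.131% of the counts in pup 2 and 0.0947% in pup 1. Mir203 was the highest of them in both pups, and Mir200a and Mir141 were the lowest. Mir203, the miRNA of stratified epithelium, had 2220 counts or 667 CPM in pup 2 and 803 counts or 710 CPM in pup 1, a mean of 688 ± 30.0 CPM (SD, n = 2). Among the 1973 genes, 635 had a count in either pup and 284 averaged 10 CPM or above. Mir203 ranked 96 in pup 2 and 88 in pup 1. Its intervals, 640 to 695 CPM in pup 2 and 661 to 760 CPM in pup 1, overlapped. Mir203 alone gave 51.0% of the counts of the 7 genes in pup 2 (49.5 to 52.5) and 74.9% in pup 1 (72.2 to 77.5), and the other 6 genes each had the higher CPM in pup 2.

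Mir205, the basal-epithelial miRNA, was much lower. It had 148 counts or 44.5 CPM in pup 2 (37.6 to 52.2) and 27 counts or 23.9 CPM in pup 1 (15.7 to 34.7), and the intervals of the pups did not overlap. Mir203 counts were 15.0 times those of Mir205 in pup 2 (12.7 to 17.8) and 29.7 times in pup 1 (20.3 to 45.4).

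**Figure D1:**
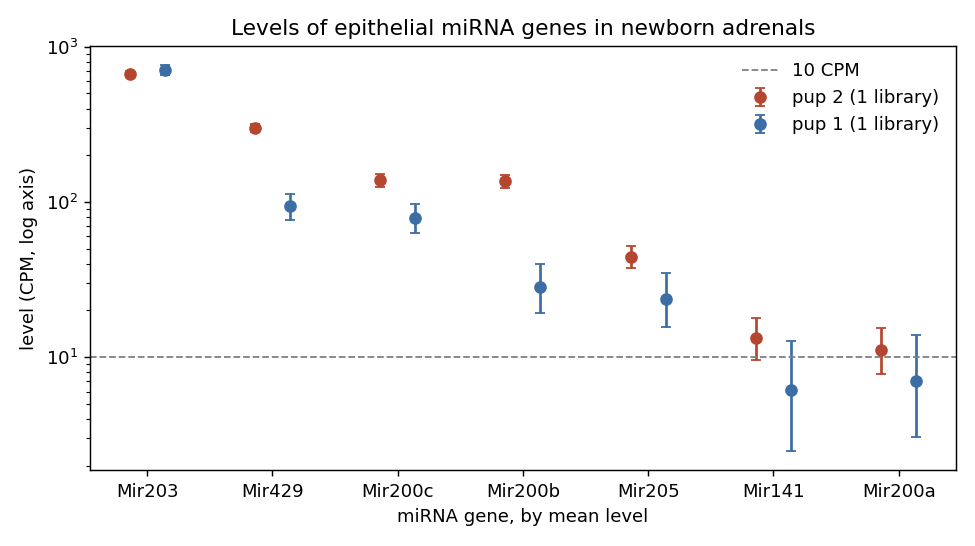
Level of each of the 7 genes (CPM, log axis) in pup 2 and pup 1, ordered by mean level; points are single libraries, bars are exact 95% Poisson intervals, and the dashed line is 10 CPM. Mir203 lies at 667 CPM in pup 2 and 710 CPM in pup 1, and for Mir429 and Mir200b the pups stand well apart.

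In the chromosome 4 cluster, Mir429 had 997 counts or 300 CPM in pup 2 (281 to 319) and 106 counts or 93.7 CPM in pup 1 (76.7 to 113). Mir200b, which shares its seed, had 452 counts or 136 CPM in pup 2 (124 to 149) and 32 counts or 28.3 CPM in pup 1 (19.3 to 39.9). For both genes pup 2 was high, pup 1 was low and the intervals were far apart. Mir200a, which lies between them and carries the other seed, had only 37 counts or 11.1 CPM in pup 2 (7.83 to 15.3) and 8 counts or 7.07 CPM in pup 1 (3.05 to 13.9), with overlapping intervals.

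In the chromosome 6 cluster, Mir200c had 458 counts or 138 CPM in pup 2 (125 to 151) and 89 counts or 78.6 CPM in pup 1 (63.2 to 96.8). Mir141 had 44 counts or 13.2 CPM in pup 2 (9.61 to 17.8) and 7 counts or 6.19 CPM in pup 1 (2.49 to 12.7). The intervals of the pups were separate for Mir200c and overlapped for Mir141.

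The order of the levels was partly shared. In pup 2 it ran Mir203, Mir429, Mir200c, Mir200b, Mir205, Mir141, Mir200a, and only the neighbours Mir200c and Mir200b, with a count ratio of 1.01 (0.888 to 1.16), and Mir141 and Mir200a, with 1.19 (0.751 to 1.89), did not differ beyond counting error. In pup 1 the last places were exchanged, and 3 pairs of neighbours did not differ beyond it: Mir429 and Mir200c with 1.19 (0.890 to 1.60), Mir200b and Mir205 with 1.19 (0.688 to 2.06), and Mir200a and Mir141 with 1.14 (0.362 to 3.70). Mir200b thus stood beside Mir200c in pup 2 and beside Mir205 in pup 1.

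The clusters were compared within each library, where scaling plays no part. Summed over its genes, the chromosome 4 cluster reached 447 CPM in pup 2 (424 to 470) and 129 CPM in pup 1 (109 to 152). The chromosome 6 cluster reached 151 CPM in pup 2 (138 to 165) and 84.8 CPM in pup 1 (68.7 to 104). Chromosome 4 therefore had the more counts in both pups, by a ratio of 2.96 in pup 2 (2.67 to 3.28) and 1.52 in pup 1 (1.17 to 1.99). The ratio in pup 2 was 1.95 times that in pup 1, with a conditional interval of 1.46 to 2.59. Without Mir429, its highest gene, the chromosome 4 cluster did not exceed the chromosome 6 cluster. The ratio was then 0.974 in pup 2 (0.858 to 1.11) and 0.417 in pup 1 (0.281 to 0.608). Mir200c, the highest gene of chromosome 6, was kept in this ratio. It held 91.2% of the counts of its cluster in pup 2 and 92.7% in pup 1.

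Seed groups were less balanced than clusters in both pups. The AAUACUG group of Mir429, Mir200b and Mir200c held 95.9% of the family counts in pup 2 (94.96 to 96.8) and 93.8% in pup 1 (90.0 to 96.5). It reached 573 CPM in pup 2 and 201 CPM in pup 1, while the AACACUG group of Mir200a and Mir141 reached 24.3 CPM in pup 2 and 13.3 CPM in pup 1. Their count ratio was 23.5 in pup 2 (18.8 to 29.8) and 15.1 in pup 1 (8.98 to 27.5), and these intervals overlapped.

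The same imbalance held in each cluster. On chromosome 4, counts with the AAUACUG seed exceeded those of Mir200a 39.2-fold in pup 2 (28.3 to 55.8) and 17.2-fold in pup 1 (8.51 to 40.8). On chromosome 6, Mir200c exceeded Mir141 10.4-fold in pup 2 (7.63 to 14.5) and 12.7-fold in pup 1 (5.92 to 32.5). The low gene was thus the carrier of AACACUG at both loci, the middle hairpin on chromosome 4 and the downstream one on chromosome 6. Read counts per molecule can differ between miRNA sequences, and their part in these ratios was not tested.

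Within the AAUACUG group, chromosome 4 gave 76.0% of the counts in pup 2 (74.0 to 77.9) and 60.8% in pup 1 (54.1 to 67.2), with separate intervals. Within the AACACUG group it gave 45.7% in pup 2 (34.6 to 57.1) and 53.3% in pup 1 (26.6 to 78.7), with overlapping intervals. The shift toward chromosome 4 in pup 2 was therefore measured in the abundant seed group. In the rare group it could not be resolved at 81 counts in pup 2 and 15 in pup 1.

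**Figure D2:**
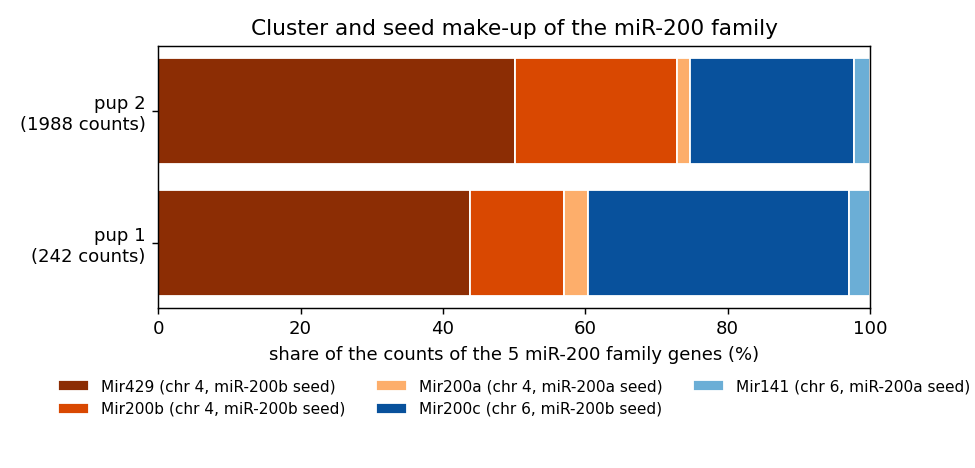
Share of each gene (%) in the summed counts of the 5 miR-200 family genes, in pup 2 above and pup 1 below; warm colours are chromosome 4 genes, blues are chromosome 6 genes, and the legend names the seed group. Chromosome 4 genes take 74.7% of 1988 counts in pup 2 and 60.3% of 242 counts in pup 1, and the pale genes of the miR-200a seed take 4.07% in pup 2 and 6.20% in pup 1.

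Set against each other, pup 2 had more of the miR-200 family and of Mir205 than pup 1, but not of Mir203. With 1 library per pup there is no replicate check and no p-value. A gene was called at a 2-fold difference in log2 CPM with 1 CPM added, among the 284 genes whose level averaged 10 CPM or above. Mir200b was 4.80-fold (3.35 to 7.11) and Mir429 3.20-fold (2.62 to 3.95) higher, and these were the only members called, 2 of the 5 that met the level minimum. Over all 284 genes, 3.52% were called higher in pup 2 and 1.76% lower. Mir200b and Mir429 had the places 4 and 5 from the highest log2 ratio of the 284.

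The ratio of pup 2 over pup 1 was 1.86 for Mir205 (1.23 to 2.92) and 1.75 for Mir200c (1.39 to 2.22), at places 12 and 17 of the 284, and neither was called. Mir141 had a ratio of 2.14 (0.955 to 5.63) and Mir200a of 1.57 (0.721 to 3.91), both with intervals that include 1, and neither reached the level minimum. Mir203 had a ratio of 0.940 (0.867 to 1.02), place 185, and its direction turned with edgeR's TMM scaling, where its log2 ratio was 0.02 in place of -0.09. The counting interval lay above 1 for 4 of the 7 members, against 17.8% of the 635 genes with a count, and for 4 of the 5 members at 10 CPM or above, against 38.7% of the 284. It lay below 1 for none of the 7, against 12.3% of the 635. By any amount, 4 of these 5 members were higher in pup 2, against 58.1% of the 284 genes. The median log2 ratio was 0.87 over the 7 members and 0.08 over the 284 genes, and the members of a cluster share a transcript and are not separate draws.

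The family and Mir203 therefore stood in different proportions in the pups. The 5 family genes together had 597 CPM in pup 2 (571 to 624) and 214 CPM in pup 1 (188 to 243), a ratio of 2.79 (2.44 to 3.21). Family counts per Mir203 count were 0.895 in pup 2 (0.842 to 0.952) and 0.301 in pup 1 (0.260 to 0.348). The value in pup 2 was 2.97 times that in pup 1 (2.54 to 3.49). Mir429 per Mir200b was 2.21 in pup 2 (1.97 to 2.47) and 3.31 in pup 1 (2.21 to 5.09), with overlapping intervals.

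**Figure D3:**
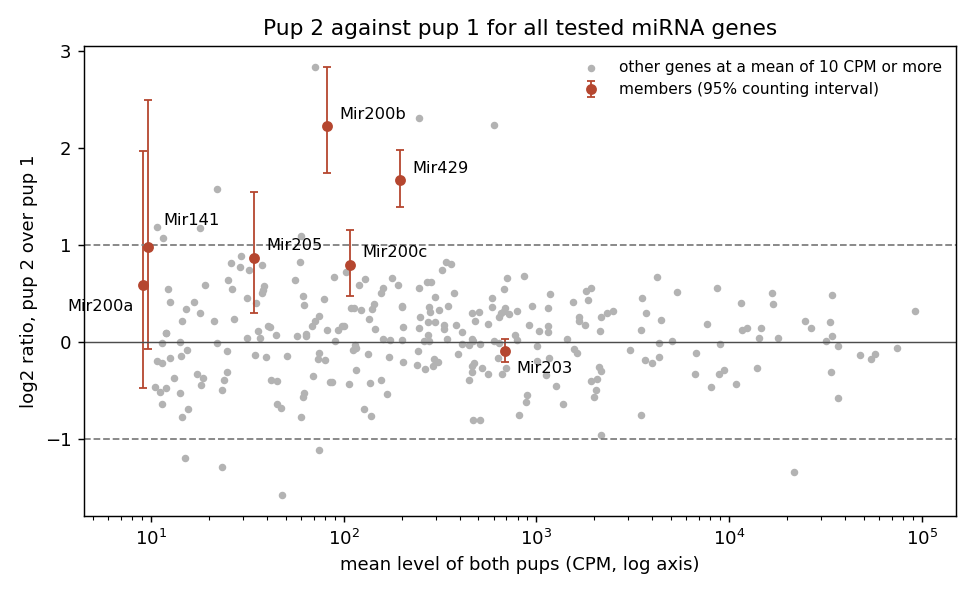
Log2 ratio of pup 2 over pup 1, with 1 CPM added, against the mean level of both pups (CPM, log axis); grey points are the other genes averaging 10 CPM or above, red points the 7 members with the 95% counting interval of their plain ratio, and dashed lines mark 2-fold. Mir200b at 2.22 and Mir429 at 1.67 lie above the upper line, Mir203 lies at -0.09, and the intervals of Mir200a and Mir141, which are below 10 CPM, cross 0.

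Other miRNA genes tied to tissues were set beside the members. Of 8 other epithelial miRNA genes, 7 reached 10 CPM. Of these 7, 0 were called higher in pup 2 and 1 was called lower, against 3.52% and 1.76% of all 284 genes. The gene called lower was Mir215, a miRNA of kidney and gut epithelium. It had 23.7 CPM in pup 2 and 72.5 CPM in pup 1, a ratio of 0.328 (0.237 to 0.452). Mir192, of the same kind of epithelium, had 158 CPM in pup 2 and 101 CPM in pup 1, a ratio of 1.57 (1.28 to 1.94). The cluster of sensory and other epithelia held Mir182 with 311 CPM in pup 2 and 242 CPM in pup 1, Mir183 with 277 CPM in pup 2 and 313 CPM in pup 1, and Mir96 with 70.6 CPM in pup 2 and 53.9 CPM in pup 1.

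Mir31 had 36.7 CPM in pup 2 and 26.5 CPM in pup 1, and Mir194-2 had 40.0 CPM in pup 2 and 30.0 CPM in pup 1. Mir194-1 was below 10 CPM on average, with 2.70 CPM in pup 2 and 13.3 CPM in pup 1. These came from 9 counts in pup 2 and 15 in pup 1, a ratio of 0.204 (0.0787 to 0.498). The counting interval of the ratio thus lay below 1 for Mir215 and Mir194-1. It lay above 1 for Mir192 and for Mir182, with 1.28 (1.12 to 1.47), and included 1 for Mir183, Mir96, Mir31 and Mir194-2. All 8 genes together held 920 CPM in pup 2 and 852 CPM in pup 1, a ratio of 1.08 (1.00 to 1.16). The median log2 ratio of the 7 genes at 10 CPM or above was 0.38. Mir194-1 and Mir194-2 belong to genes with copies of 1 mature sequence, and reads that map to several loci are outside the gene counts.

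Summed over its genes, the mesenchymal list stood far above the members, through Mir143 and Mir214. By gene counts, which leave out reads that map to several loci, its other genes were each below Mir203 in both pups. The list held 22857 CPM in pup 2 and 18330 CPM in pup 1, a ratio of 1.25 (1.23 to 1.27). Of its 5 genes at 10 CPM or more, 0 were called, against 3.52% higher and 1.76% lower over all 284 genes. The smooth-muscle miRNA Mir143 had 19266 CPM in pup 2 and 14704 CPM in pup 1, and Mir214 had 2979 CPM in pup 2 and 3146 CPM in pup 1. Mir145a had 510 CPM in pup 2 and 413 CPM in pup 1, and Mir199b 68.2 CPM in pup 2 and 43.3 CPM in pup 1. Mir199a-2 had 31.6 CPM in pup 2 and 21.2 CPM in pup 1. Mir199a-1 had 2.10 CPM in pup 2 and 2.65 CPM in pup 1, from 7 counts in pup 2 and 3 in pup 1. Mir199a-1 and Mir199a-2 are also genes with copies of 1 mature sequence, and their levels leave out reads that map to several loci.

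A striated muscle miRNA was also called higher in pup 2, the 1 gene of its list that reached 10 CPM. Over all 284 genes, 3.52% were called higher. Mir206, a skeletal muscle miRNA, had 411 CPM in pup 2 and 82.2 CPM in pup 1, a ratio of 5.00 (4.05 to 6.24). The striated muscle list held 423 CPM in pup 2 and 87.5 CPM in pup 1, nearly all of it Mir206. Of its 9 measured genes, Mir1a-1, Mir133a-1 and Mir133a-2, whose reads can map to several loci, were at 0 in both pups. The others were at a few counts: Mir208b had 3.61 CPM in pup 2 and 1.77 CPM in pup 1, Mir499 had 3.61 CPM in pup 2 and 0.884 CPM in pup 1, and Mir1b had 2.40 CPM in pup 2 and 2.65 CPM in pup 1. For these 3 genes the interval of the ratio includes 1. Mir133b, the neighbour of Mir206, and Mir208a had 4 and 2 counts in pup 2, and both had 0 in pup 1. The hepatocyte miRNA Mir122 had 4081 CPM in pup 2 and 2979 CPM in pup 1, a ratio of 1.37 (1.32 to 1.42). The part of other tissues in the levels of Mir200b and Mir429 was not tested.

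**Figure D4:**
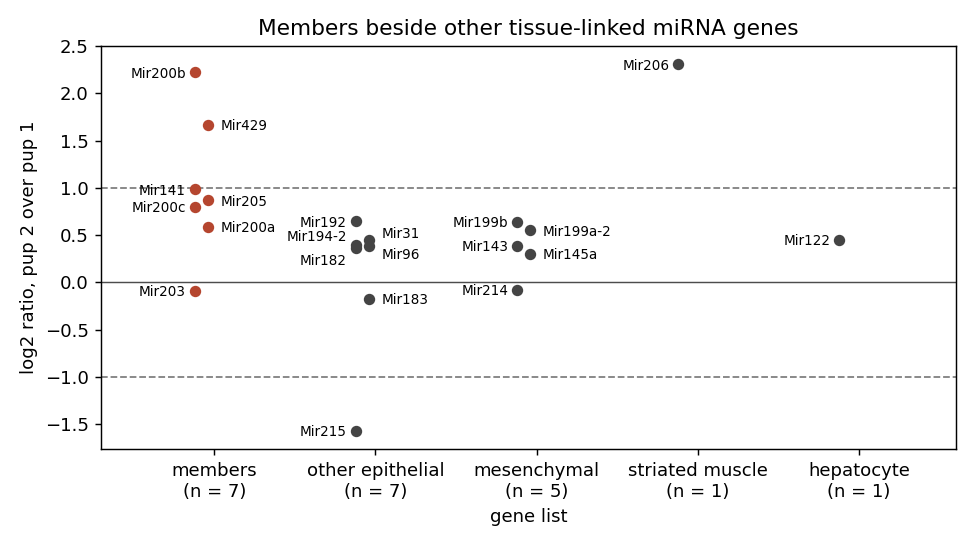
Log2 ratio of pup 2 over pup 1 for the 7 members and for genes averaging 10 CPM or above in 4 other lists; each point is 1 gene and dashed lines mark 2-fold. Mir200b, Mir429 and Mir206 lie above the upper line and Mir215 lies below the lower one.

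By the distance between log2 levels over the 2 libraries, with 1 CPM added, the gene outside the group most like Mir429 was Mir206, at a distance of 0.49, followed by Mir667 at 0.72 and Mir328 at 0.79. Nearest to Mir203 were Mir181d at 0.13, Mir320 at 0.16 and Mir210 at 0.18. Nearest to Mir200c were Mir204 at 0.11, Mir148b at 0.28 and Mir340 at 0.32. With 2 libraries this likeness describes level and ratio only.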

How the data were processed

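The authors deposited raw counts of reads per miRNA gene, 1 table per library, on mm10 with GENCODE M4, per the sample notes among the files; for the aligner and any trimming, a name and version were not given in the sources used here. Each table has unstranded, same-strand and opposite-strand columns, and the same-strand column was used. Rows that name no gene were left out of library sizes: multi-mapped reads were 32.2% of reads in pup 2 and 34.9% in pup 1, unmapped reads 11.2% in pup 2 and 10.6% in pup 1, and reads outside genes 3.86% in pup 2 and 4.03% in pup 1. GENCODE M21 gave symbols to 1894 of 1973 rows; the other 79 held no counts. The members, lists and alternatives were chosen with earlier results of these data known. Named genes are the 7 members, the lists, and the 3 genes nearest to Mir429, Mir203 and Mir200c. Mir1a-2 was not analysed here. CPM, ratios with exact conditional intervals (SciPy 1.17.1) and shares with exact Clopper-Pearson intervals were computed in Python 3.11.15 and tested on simulated data. Alternatives were TMM (edgeR 4.0.16), DESeq2 1.42.0 size factors, a prior of 5 CPM, no level minimum, the unstranded column, all reads as denominator, and leaving out each pup. No p-value was computed.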

Additional observations from a re-analysis of the deposited data

Results flagged for a closer look

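Reads opposite to Mir203 stood out because they lie in a column that the levels above do not use. The opposite strand of this gene had 55 counts in pup 2 and 21 in pup 1. These made up 2.42% (1.83 to 3.14) of its reads in pup 2 and 2.55% (1.58 to 3.87) in pup 1. The other 6 genes had 0 opposite-strand counts in both pups, and the exact 95% interval allows a share of up to 0.369% for Mir429, 0.802% for Mir200c and 0.813% for Mir200b in pup 2, all below the interval of Mir203. The counts of Mir205, Mir141 and Mir200a were too few to exclude the share of Mir203, with limits of 2.46%, 8.04% and 9.49% in pup 2. In pup 1 the limits of the 6 genes ran from 3.42% for Mir429 to 41.0% for Mir141, so none of them excludes that share there. Among the 284 genes at 10 CPM or more, 11 (3.87%) had opposite-strand counts in both pups. By opposite-strand share in pup 2, Mir203 ranked 4 among these 11 genes, whose median share was 0.586%. All gene rows together had 104740 opposite-strand counts in pup 2 and 39345 in pup 1, beside 3327743 and 1131762 same-strand counts. The opposite-strand share of Mir203 was thus below that of all gene rows together in both pups. RefSeq annotates a second miRNA gene, Gm51289 or Mir203b, on the minus strand within the Mir203 hairpin. Its strands are shown because the 5p strand is complementary to miR-203-3p over 20 bases, with capitals marking bases 2 to 8.
miR-203b-5p: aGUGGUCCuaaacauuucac
miR-203b-3p: uUGAACUGucaagaaccacugg
Whether the opposite-strand reads are these strands was not tested, since the counts do not give read sequences.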

How the results depend on the processing

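None of the 35 log2 ratios of the members under alternatives left its counting interval, and the 2 calls, Mir200b and Mir429, were made under TMM, DESeq2 size factors, a prior of 5 CPM, no level minimum and the unstranded column. TMM moved the median log2 ratio of all genes up by 0.10, which placed Mir203 at 0.02 and Mir141, below the level minimum, at 1.08. With all reads of the table as denominator, the summed level of the 7 genes was 584 CPM in place of 1128. All 7 genes fell, since gene rows held 52.7% of reads in pup 2 and 50.4% in pup 1. For 4 single genes, Mir200a, Mir200c, Mir203 and Mir205, the fall in the mean level was larger than the SD of the 2 pups. The mean cluster ratio was 2.24, and 0.695 without Mir429. Leaving out a pup gave a summed level of 947 to 1309 CPM, a cluster ratio of 1.52 to 2.96 and an AAUACUG share of 93.8% to 95.9%. Without a level minimum, 42 of 635 genes were called higher and 43 lower, against 10 and 5 of 284. Depth limits Mir200a and Mir141, which had 8 and 7 counts in pup 1. No paired analysis was possible because the libraries form 1 group.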
